A study of Mus musculus with 10 samples.

Results

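The 9 genes described here make up the LIF receptor and Stat3 pathway: the ligand *Lif*, the receptor subunits *Lifr* and *Il6st*, the kinases *Jak1* and *Jak2*, the transcription factor *Stat3* and its targets *Socs3*, *Pim1* and *Pim3*. They were taken by name and not by a rule on measured values, though earlier results of these data were known. All 9 were found among the 18901 genes of the deposited table. RNA of 5 mouse lines on a mixed MF1 and 129 background, each carrying an Oct4-GFP reporter as far as their names and origin give it, was sequenced from 2 passages per line, 10 libraries in all. Oct4/GFP MEF are embryonic fibroblasts, sampled at passages 2 and 4 and grown with fetal calf serum. The pre-iPS line, whose reprogramming is incomplete, the 'control' iPS line and clones 1 and 2 of 'rNetrin-1-derived' iPS cells were each sampled at passages 5 and 25. The clones were obtained from such fibroblasts infected with retroviruses for Oct4, Sox2, Klf4 and c-Myc. Recombinant Netrin-1, a secreted guidance factor, was in their medium, and the control line was obtained without it. According to the paper, the pre-iPS cells leave the endogenous Oct4/GFP locus off and their retroviral transgenes unsilenced. Per the labels, iPS cells were kept in a serum replacement medium with added LIF. For pre-iPS and iPS cells alike the methods name that medium with or without an inhibitor pair called 2i, and they do not say which was used for these libraries. The culture medium and the cell type therefore cannot be told apart between MEF and the iPS lines. Among the pre-iPS and iPS lines, any difference in the use of 2i could not be told apart from the line either. The control condition is 1 clone and the libraries of a line come from the same cells at different passages. The p-values below therefore measure the spread between passages of these lines and not the spread between clones derived separately. In comparisons between lines that spread is pooled over all 5 lines. These include MEF, whose passages are closer and whose libraries differed least, also where MEF are not compared.

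LIF binds its receptor LIFR, which pairs with the shared signalling subunit encoded by *Il6st*. Janus kinases held on the receptor tails then phosphorylate STAT3, which forms dimers, enters the nucleus and activates its targets. Mouse pluripotent cells are kept self-renewing in culture by this pathway, and SOCS3, a product of a Stat3 target, binds the receptor and shuts the kinases down. The libraries measure mRNA, so they do not show how much STAT3 was phosphorylated.

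The libraries held 38110410 to 52946856 reads on genes. Values are given in the authors' unit, a read count brought by edgeR to a common library size, in which 1 read was worth 0.888 to 1.18. The MEF libraries held the most reads, 47356484 and 52946856, and 1 read there was still worth the most, 1.18 and 1.06. Values in MEF thus stand higher than scaling by reads on genes alone would put them. That scaling was not among the settings tried. Each of the 9 genes had at least 642 reads in every library, so counting error is small. The MEF libraries differed less from each other than those of any other line, with a mean chi-square per gene of 2.91 against 39.3 to 55.0, where 1 is counting error alone. Marker genes followed the labels in MEF and iPS cells. The 8 fibroblast markers summed to 2858960 to 3002490 in MEF and to 19034 to 33465 in the other libraries, all 8 being detected there, and the 10 pluripotency markers to 2235 to 2750 in MEF and 135324 to 190124 in the iPS lines. In pre-iPS cells that sum was 412262 to 435886, nearly all of it *Pou5f1* (Oct4), one of the retroviral factors. *Dppa3*, a germ cell and naive pluripotency marker, was at 4.80 to 8.16 there against 436 to 1646 in the iPS lines. Of the 10 markers, 7 were called lower in pre-iPS than in iPS cells, 1 higher and 2 neither. Over all genes tested 11.6% were lower and 4.71% higher. *Zfp42*, at 6512 and 6101, and *Fgf4*, at 2409 and 2598, lay within the range of the iPS libraries. The methods place pre-iPS and iPS cells on gelatin or on irradiated MEF, and do not say which was used here. The 9 macrophage markers summed to 13119 to 13206 in MEF and 705 to 2043 elsewhere, 8 of the 9 were called higher in MEF, and *Adgre1*, which defines macrophages, stood at 787 to 811 in MEF and at 0 to 4.47 elsewhere. In such bulk RNA, fewer cells of a type and less RNA per cell cannot be told apart, and the part of these other cells in the results below was not tested.

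*Il6st* separated the fibroblasts from all other lines by the widest margin of the 9 genes. It stood at 45196 and 45114 in MEF, at 2844 and 3385 in the pre-iPS line, at 3198 and 3690 in the control line, at 3472 and 3595 in clone 1 and at 3630 and 3773 in clone 2. On average MEF held 12.7-fold the level of the iPS lines, and the 8 pre-iPS and iPS libraries lay within a narrow band. The log2 difference between MEF and the iPS lines was 3.67 (SE 0.082, adjusted p = 6.28e-09, limma). *Lifr*, the subunit that LIF binds before the pairing with *Il6st*, was highest in MEF as well, at 3481 and 3490. It stood at 1898 and 2234 in pre-iPS cells. It was 1124 and 771 in the control line, 1087 and 1241 in clone 1 and 1062 and 1114 in clone 2, so that MEF, pre-iPS and iPS libraries formed 3 levels without overlap. Over all genes tested, 80% had no overlap between MEF and iPS, 41.8% between pre-iPS and iPS and 87.5% between pre-iPS and MEF. On the log2 scale the *Lifr* difference was 1.72 between MEF and iPS (SE 0.14, adjusted p = 4.43e-06, limma) and 0.96 between pre-iPS and iPS (SE 0.14, adjusted p = 0.000947, limma). The latter lies just under the 1 set here for a call, and it was 1.05 without the control library of passage 5 and 1.08 without the pre-iPS library of passage 5, both called.

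The ligand itself varied little. *Lif* stood at 1277 and 1321 in MEF, 1309 and 1084 in the pre-iPS line, 759 and 952 in the control line, 1126 and 946 in clone 1 and 1069 and 921 in clone 2. Each line overlapped its neighbour in the order MEF, pre-iPS, clone 1, clone 2 and control. Both MEF libraries lay above all 6 iPS libraries, and 80% of all genes had no overlap between these groups. In reads before scaling, *Lif* had 1077 and 1252 in MEF, within the 785 to 1268 of the iPS libraries. The difference of 0.44 between MEF and the iPS lines (SE 0.13) had an adjusted p of 0.0105 in limma, and its size kept it from being called.

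Both Janus kinases rose in the fibroblasts. *Jak1*, the kinase on which signalling through the *Il6st* subunit mainly depends, stood at 24415 and 24979 in MEF. In the other lines it was 5673 and 5195 in pre-iPS cells, 4972 and 5143 in the control line, 5265 and 4974 in clone 1 and 4957 and 4601 in clone 2. Outside MEF the libraries thus lay between 4601 and 5673. *Jak2* stood at 2793 and 2839 in MEF, 864 and 718 in the pre-iPS line, 1040 and 884 in the control line, 1027 and 832 in clone 1 and 999 and 755 in clone 2. Apart from MEF, all neighbours in its order of lines overlapped. For *Jak1* the exception was clone 2, whose libraries lay just below both of the control line (4957 against 4972). Between clone 2 and clone 1, also with 2 libraries each, 42.8% of all genes had no overlap. The log2 differences between MEF and iPS were 2.31 for *Jak1* (SE 0.062, adjusted p = 1.29e-08, limma) and 1.62 for *Jak2* (SE 0.14, adjusted p = 6.94e-06, limma).

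*Stat3*, the transcription factor at the end of the cascade, formed 3 levels like *Lifr*. Its values were 17840 and 17809 in MEF, 8113 and 8003 in the pre-iPS line, 5246 and 5015 in the control line, 5763 and 5177 in clone 1 and 6118 and 4893 in clone 2. MEF, pre-iPS and iPS libraries did not overlap, while the 3 iPS lines overlapped one another. MEF exceeded the iPS lines by 1.74 (SE 0.087, adjusted p = 2.74e-07, limma), which was called. The difference of 0.59 between pre-iPS and iPS (SE 0.087) had an adjusted p of 0.00107 in limma and a 95% interval of 0.39 to 0.79, below the size needed for a call. *Stat3* shares 72 exon bases with *Stat5a* on the opposite strand, and the library kit does not mark the strand, so reads there cannot be assigned.

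The targets did not move together. *Socs3*, the feedback inhibitor, overlapped across lines. It stood at 4555 and 4440 in MEF, 4672 and 3057 in the pre-iPS line, 3598 and 2302 in the control line, 4686 and 3526 in clone 1 and 5432 and 4004 in clone 2. Passage 25 was below passage 5 in each of the pre-iPS and iPS lines. The difference between MEF and iPS was 0.25 (SE 0.22, adjusted p = 0.324, limma) and turned to −0.025 with quantile normalization.

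Part of the promoter window of *Socs3* is shown because *Socs3* is the inhibitor the pathway switches on through STAT3. Its window, alone among those of the 9 genes, also held the palindromic STAT motif. The motif searched was TTCNNNGAA, which reads the same on both strands, in windows of 250 bases before to 50 after each RefSeq start on GRCm38. All 9 genes were matched, with 11 windows, and 1 window held it, against 2726 of 32851 windows over all genes (8.3%). Below are 165 bases at chr11:117969452-117969616, minus strand, with the motif in capitals at 154 to 146 bases before the start. The stretch lies within an intron of a longer GENCODE transcript of *Socs3* and outside its exons. The part of the window nearer the start, into which a GENCODE exon of *Socs3* reaches, is not printed. Only the first match in the window was marked.
Socs3: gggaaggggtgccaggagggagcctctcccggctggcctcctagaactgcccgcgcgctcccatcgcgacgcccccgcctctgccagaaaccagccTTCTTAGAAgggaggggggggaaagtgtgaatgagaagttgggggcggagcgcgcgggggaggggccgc
The match describes letters only, since no binding was measured in these libraries.

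*Pim1*, a serine/threonine kinase, was at its lowest in MEF and in pre-iPS cells alike. It stood at 759 and 686 in MEF, 655 and 818 in the pre-iPS line, 2932 and 3109 in the control line, 1738 and 1855 in clone 1 and 1764 and 2738 in clone 2. Pre-iPS and MEF libraries overlapped, and every iPS library lay above all 4 of them. *Pim1* fell by 1.66 in MEF (SE 0.16, adjusted p = 1.33e-05, limma) and by 1.64 in pre-iPS cells (SE 0.16, adjusted p = 0.000122, limma) against the iPS lines. An antisense gene, *Gm26885*, covers 488 of its 3362 exon bases, and reads of the pair cannot be told apart without strand.

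*Pim3*, a related kinase, was low in MEF and not in pre-iPS cells. Its values were 977 and 989 in MEF, 3267 and 3066 in the pre-iPS line, 3878 and 2745 in the control line, 3838 and 3992 in clone 1 and 3575 and 4098 in clone 2. Only MEF stood apart from the other lines. *Pim3* fell by 1.89 in MEF (SE 0.12, adjusted p = 1.07e-06, limma), and the difference of −0.21 between pre-iPS and iPS (SE 0.12, adjusted p = 0.204, limma) had a 95% interval of −0.48 to 0.07.

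**Figure D1:**
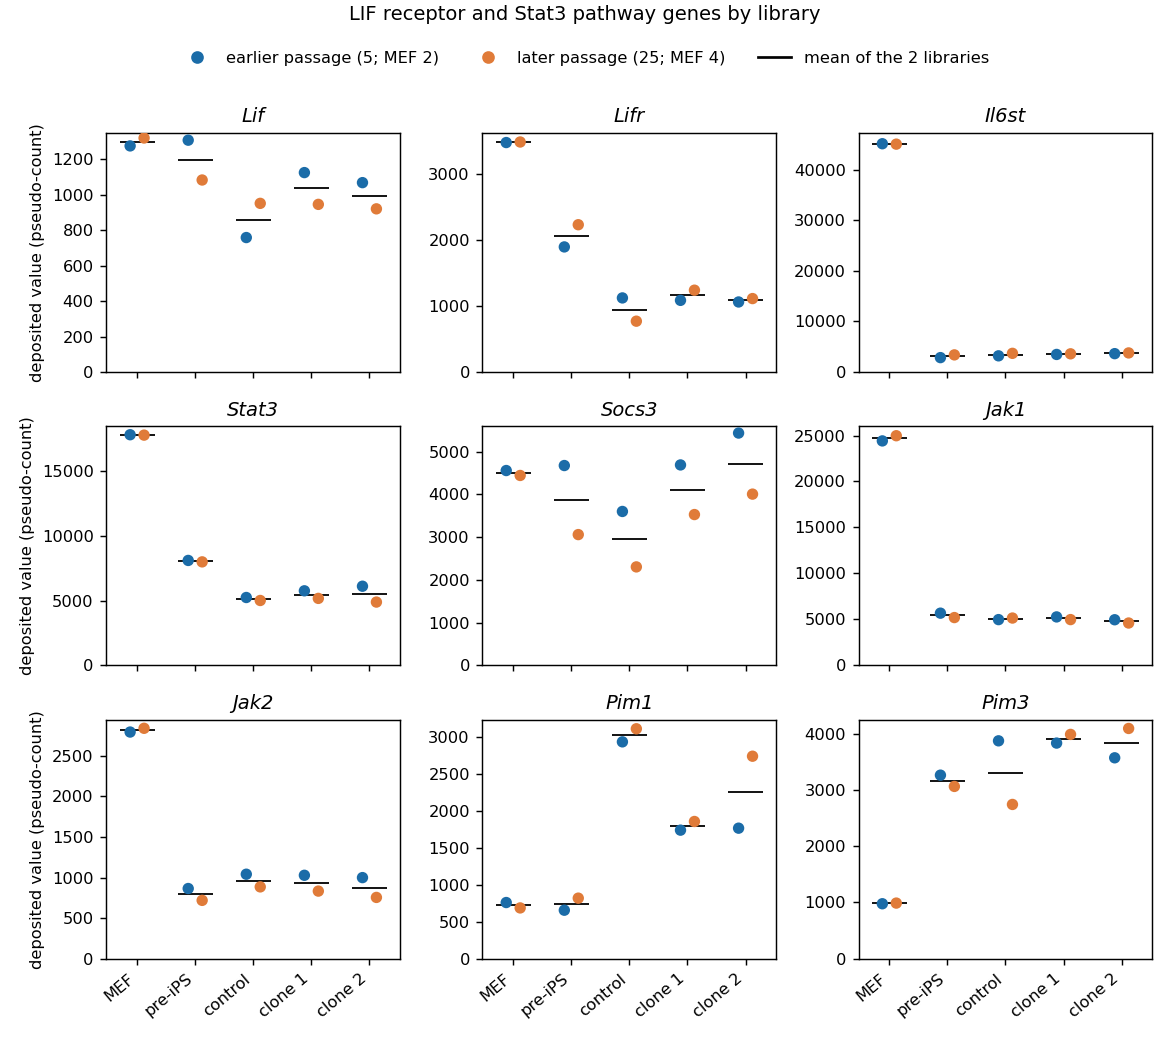
Deposited value (pseudo-count, linear axis from 0) of each of the 9 genes in the 10 libraries; points are libraries coloured by passage and bars are the mean of the 2 libraries of a line. *Il6st*, *Stat3*, *Jak1*, *Jak2* and *Lifr* stood highest in MEF, *Pim3* lowest, and *Pim1* was low in both MEF and pre-iPS cells.

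Between MEF and the iPS lines, 5 of the 9 genes were called higher (*Lifr*, *Il6st*, *Stat3*, *Jak1*, *Jak2*) and 2 lower (*Pim1*, *Pim3*), a call being an adjusted p under 0.05 in limma with a log2 difference of at least 1. Over the 17075 genes tested, 21.6% were called higher and 26.6% lower. Higher genes were thus 44.8% of the calls, and 58.2% of them with housekeeping scaling. With the adjusted p alone 8 of the 9 passed, where 79.3% of all genes did. The median log2 difference of the 9 genes was 1.62, beside −0.09 over all genes tested. Housekeeping genes were themselves unequal, from −0.96 for *Gapdh* to 0.45 for *Actb*. Scaling to *Gapdh*, *Actb*, *Hprt* and *Tbp* moved the median of all genes to 0.30, and the same 7 calls were made in the same directions under that and every other setting tried.

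Between pre-iPS cells and the iPS lines, *Pim1* was called lower and none of the 9 genes higher, where 11.6% of all genes tested were lower and 4.71% higher. Higher genes were 28.9% of the calls, and 50.8% of them with quantile normalization. With the adjusted p alone, *Lifr*, *Stat3* and *Pim1* passed, 3 of 9 where 39.6% of all genes passed. The same 3 were those whose pre-iPS libraries did not overlap the iPS libraries, which 41.8% of all genes also showed. The median difference was −0.01 for the 9 genes and 0.00 over all. Neither share of the 9 genes exceeds that over all genes. The remaining genes gave 95% intervals that stayed within −0.54 and 0.61. This comparison shares the iPS libraries with the one above, so the values are side by side and not independent.

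Set against MEF, pre-iPS cells were called lower in *Il6st* (−3.86), *Jak1* (−2.19), *Jak2* (−1.84) and *Stat3* (−1.15) and higher in *Pim3* (1.69). Of all genes tested 20.9% were lower and 22.4% higher, so that higher genes were 51.7% of the calls and, with housekeeping scaling, 36.6%. *Lifr* differed by −0.76 (SE 0.17, adjusted p = 0.00341, limma) and was not called, although scaling to housekeeping genes made it −1.18 and called. The call for *Stat3* was lost with quantile normalization, at −0.69. *Pim1* differed by 0.02, with a 95% interval of −0.42 to 0.47.

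**Figure D2:**
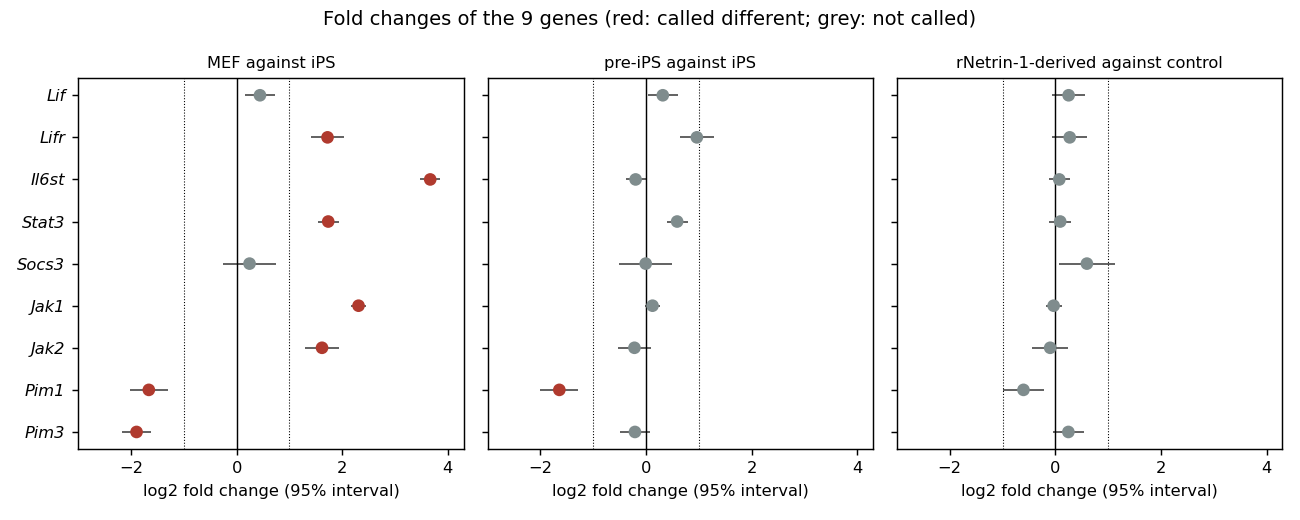
Log2 fold change of each gene with its 95% interval from limma (horizontal bars) in MEF against iPS, pre-iPS against iPS and rNetrin-1-derived against control; red points are called, grey points are not, and dotted lines mark a log2 fold change of 1 in either direction. In MEF 7 of the 9 genes were called, in pre-iPS cells *Pim1*, and between rNetrin-1-derived and control lines none.

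The rNetrin-1-derived clones were compared with the control line to ask whether cells obtained with the factor express the pathway otherwise. None of the 9 genes was called, where 2.11% of all genes tested were. The count was also 0 with edgeR and with DESeq2 on the recovered reads, and 2 of the 9 had an unadjusted p under 0.05 in limma. These were *Pim1*, at −0.60 (SE 0.17, adjusted p = 0.0962), and *Socs3*, at 0.60 (SE 0.23, adjusted p = 0.221). *Pim1* was the 1 gene of the 9 whose 4 clone libraries, 1738 to 2738, all lay outside the control libraries, 2932 and 3109, which was true of 21.3% of all genes. For *Socs3* the clone libraries ran from 3526 to 5432 and overlapped those of the control, 2302 and 3598, when both passages were pooled. Within a passage both clones lay above the control, at 4686 and 5432 against 3598 at passage 5 and at 3526 and 4004 against 2302 at passage 25. The differences within a passage had one sign in all 4 pairs for *Socs3*, *Pim1* and *Jak2*, 3 of 9 where 36.1% of all genes showed this. A further fit took passage as a replicate block and also left out MEF, so its spread was pooled over fewer lines. There the adjusted p in limma was 0.00469 for *Socs3* and 0.0265 for *Pim1*, with the sizes unchanged and still under 1. These 2 of the 9 then passed the adjusted p alone, as did 7.77% of all genes. The other 7 genes differed by −0.10 to 0.27. For *Lifr* the difference of 0.27 rested on the control library of passage 25, being 0.00 without it and 0.54 without that of passage 5. The 95% intervals of the 9 genes together ran from −0.99 to 1.13.

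Clone 2 and clone 1 gave no call either among the 9 genes, with 0.966% of all genes called. None had an unadjusted p under 0.05 in limma, and edgeR and DESeq2 also called none. The differences ran from −0.10 for *Jak1* to 0.29 for *Pim1*. The latter came from the passage 25 library of clone 2, at 2738, and was −0.025 without it.

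*Socs3* was lower at passage 25 in each line. From passage 5 to passage 25 its log2 value changed by −0.64 in the control line, −0.41 in clone 1, −0.44 in clone 2 and −0.61 in pre-iPS cells. The mean difference, with the line as a block, was −0.53 (SE 0.059, adjusted p = 0.00427, limma), lower in 4 of 4 lines. *Jak2* was likewise lower in 4 of 4 lines, by −0.23 to −0.40, with a mean of −0.30 (SE 0.069, adjusted p = 0.0354, limma). *Stat3* was lower in 4 of 4 lines as well, by −0.02 to −0.32, and its mean of −0.14 did not pass (SE 0.061, adjusted p = 0.177, limma). With *Il6st* and *Pim1*, which were higher, 5 of the 9 genes had one sign in all 4 lines, where 35.9% of all genes did. Neither *Socs3* nor *Jak2* reached the size for a call, so 0 of the 9 genes were called, where 1.69% of all genes were, and edgeR and DESeq2 called none. With the adjusted p alone these 2 passed, where 10.9% of all genes did, and 4 of the 9 had an unadjusted p under 0.05. Without the line as a block the adjusted p was 0.424 for *Socs3* and 0.411 for *Jak2*. Leaving out each of the 8 libraries in turn kept *Socs3* under 0.05, at 0.0128 to 0.0309, but not *Jak2*, at 0.0524 to 0.179, and *Jak2* also missed it with quantile normalization (0.0551).

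*Pim1* and *Il6st* were the other 2 with an unadjusted p under 0.05. *Pim1* was higher at passage 25 by 0.08 to 0.63 in the 4 lines, with a mean of 0.28 (SE 0.098, adjusted p = 0.109, limma), and *Il6st* by 0.05 to 0.25, with a mean of 0.14 (SE 0.056, adjusted p = 0.152, limma). Of the macrophage markers, *Csf1r* (−1.48, adjusted p = 0.00515, limma) and *Cd68* (−1.07, adjusted p = 0.00472, limma) fell with passage, 2 of 9, and the other 7 were not called. The median over the 9 was −0.26, and *Adgre1*, at most 4.47, was lower at passage 25 in 0 of the 4 lines and higher in 3. *Ptprc*, *Fcgr3* and *Itgam* were each lower in 2 lines and higher in 2. Without the clone 1 library of passage 5 *Csf1r*, at −1.42 with an adjusted p of 0.0504, and *Cd68*, at −0.95, were not called. The sum over all 9 was lower at passage 25 in each of the 4 lines and ran from 1264 to 2043 at passage 5 and from 705 to 1186 at passage 25, with *Cd68* making up 50.1 to 76.6% of it. Without *Cd68* and *Csf1r* the sum was lower at passage 25 in 2 of the 4 lines and higher in 2. Whether this bears on *Socs3* or *Jak2* was not tested.

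**Figure D3:**
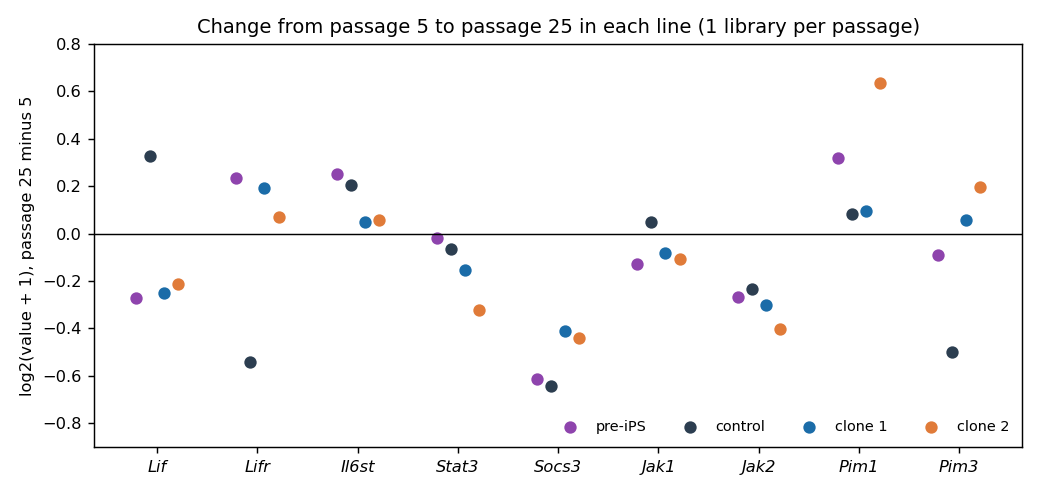
Change of log2(value + 1) from passage 5 to passage 25 for each gene, 1 point per line with 1 library per passage, on a linear axis. All 4 points lie below 0 for *Socs3*, *Jak2* and *Stat3*, the last with points near 0, and above 0 for *Il6st* and *Pim1*, while *Lif*, *Lifr*, *Pim3* and, by small amounts, *Jak1* have the control line on the other side of 0 from both clones.

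Per kilobase of exon, which allows genes to be compared within a line, the mean level in the iPS lines ran from *Lifr*, the lowest at 99.0, through *Jak2* at 183, *Lif* at 221 and *Il6st* at 321 to *Stat3* at 564, *Jak1* at 690 and *Pim1* at 701. *Socs3* at 1358 and *Pim3* at 1519 were the highest. In MEF the receptor and kinase led instead, *Il6st* at 4068 and *Jak1* at 3417, and *Pim1* at 215 was the lowest. In both cell types *Il6st* exceeded its partner *Lifr*, at 321 against 99.0 in iPS cells and 4068 against 323 in MEF. In pre-iPS cells the pair stood at 281 and 192. Exon lengths are the union of GENCODE M21 exons, which need not be those the authors counted.

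On GRCm38, *Lif* lies at chr11:4257557-4272514 on the plus strand, *Lifr* at chr15:7090614-7197489 on the plus strand and *Il6st* at chr13:112464070-112510086 on the plus strand. *Jak1* lies at chr4:101152367-101265282 on the minus strand, *Jak2* at chr19:29251828-29313080 on the plus strand and *Stat3* at chr11:100885098-100939540 on the minus strand. *Socs3* lies at chr11:117966079-117970047 on the minus strand, *Pim1* at chr17:29490753-29496112 on the plus strand and *Pim3* at chr15:88862186-88865726 on the plus strand. All 9 are annotated as protein coding.

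Other genes of the pathway were counted in the same fits from lists chosen by function. The counts stand beside 21.6% of all genes called higher and 26.6% lower in MEF against iPS, and 4.71% and 11.6% in pre-iPS cells against iPS. Ligands of the IL-6 family, which signal through the *Il6st* subunit, were called higher in MEF for 5 of the 7 tested and lower for 1, with a median of 1.33 beside −0.09 over all genes. *Osm*, the ligand oncostatin M, fell by 3.67 in MEF and fell by 2.36 in pre-iPS cells. It stood at 142 and 159 in clone 2, at 14.4 to 40.6 in the other iPS lines, at 7.14 and 9.60 in pre-iPS cells and at 3.51 and 2.13 in MEF, so its highest libraries were those of 1 clone. *Ctf2* and *Il27* did not pass the filter on low values.

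The other receptors that pair with *Il6st* or resemble it were higher in MEF for 3 of 5 and lower for 1, with a median of 1.60. In pre-iPS cells 1 was higher and 1 lower, with a median of 0.12. *Il11ra1*, the IL-11 receptor, rose by 3.53 and *Osmr*, the oncostatin M receptor, by 3.21. *Osmr* also rose in pre-iPS cells, by 1.71 (SE 0.075, adjusted p = 3.06e-06, limma), with 4762 and 4823 against 1180 to 1799 in the iPS libraries, and *Cntfr*, the receptor of ciliary neurotrophic factor, was lower there (−1.80). *Osmr* thus took 3 levels in the same order as *Lifr* and *Stat3*, with 13538 and 13611 in MEF. Other genes of these lists, *Stat5b* among them, did so too. A lack of overlap between any pair of these groups was common, at 41.8 to 87.5% of all genes tested.

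Among the other Janus kinases and STATs, 2 of 8 were higher and 1 lower in MEF, and 2 were higher in pre-iPS cells, with medians of 0.55 and 0.18. *Stat4* fell by 6.45 in MEF, from 202 to 381 in the iPS libraries to 1.27 and 3.15. *Stat5a* rose by 1.32 in MEF and by 1.28 in pre-iPS cells, and *Stat5b* by 1.00 in pre-iPS cells, at 1944 and 1974 against 899 to 1094 in the iPS libraries. The call of *Stat5b* sits at the limit and was lost under 8 of 21 alternatives, at values down to 0.96. Of 14 other inhibitors, 2 were higher and 1 lower in MEF, and 1 was lower in pre-iPS cells. *Socs1*, an inhibitor of the same family as *Socs3*, rose by 2.09 in MEF and fell by 1.09 in pre-iPS cells, where it was −0.81 with quantile normalization and −0.89 without the pre-iPS library of passage 25, neither called. *Ptpn6*, a phosphatase, fell by 2.06 in MEF. The inhibitors' median was 0.33 in MEF and −0.07 in pre-iPS cells.

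Other genes held to be Stat3 targets in pluripotent cells were lower in MEF for 6 of 11 and higher for 1, with a median of −4.04. The 6 include *Klf4* (−4.04) and *Myc* (−4.46), which the reprogramming retroviruses carry, and reads of viral and chromosomal copies cannot be told apart in this table. Without this pair 4 of 9 were lower and 1 higher, and the median was −0.53. In pre-iPS cells 4 of the 11 were lower and 2 higher, with a median of −0.55. The higher 2 were again *Klf4* (1.38) and *Myc* (1.25), and without them 4 of 9 were lower, with a median of −0.92. The paper describes the retroviral transgenes as not silenced in pre-iPS cells. *Gbx2*, a homeobox factor, fell by 6.24 in MEF, and *Pramel7*, which had 0 reads there, was at least 16.9-fold lower at a floor of 3 reads per library. With that bound the median of the 11 stayed at −4.04. In pre-iPS cells *Pramel7* had 1 read in all, against values of 16.0 to 86.0 in the iPS libraries. This is 0.872% of the iPS mean, with an exact 95% interval of 0.022 to 4.86% for counting error only. *Sgk1*, a kinase, fell there by 2.71. In the Ras and MAP kinase branch 1 of 9 was higher and 1 lower in MEF, with a median of 0.21, and 1 was lower in pre-iPS cells, with a median of −0.09. The adaptor *Gab1* fell by 1.55 in MEF and by 2.35 in pre-iPS cells, while *Ptpn11*, the phosphatase SHP2, rose by 1.03 in MEF, or 0.60 with quantile normalization, no longer called.

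**Figure D4:**
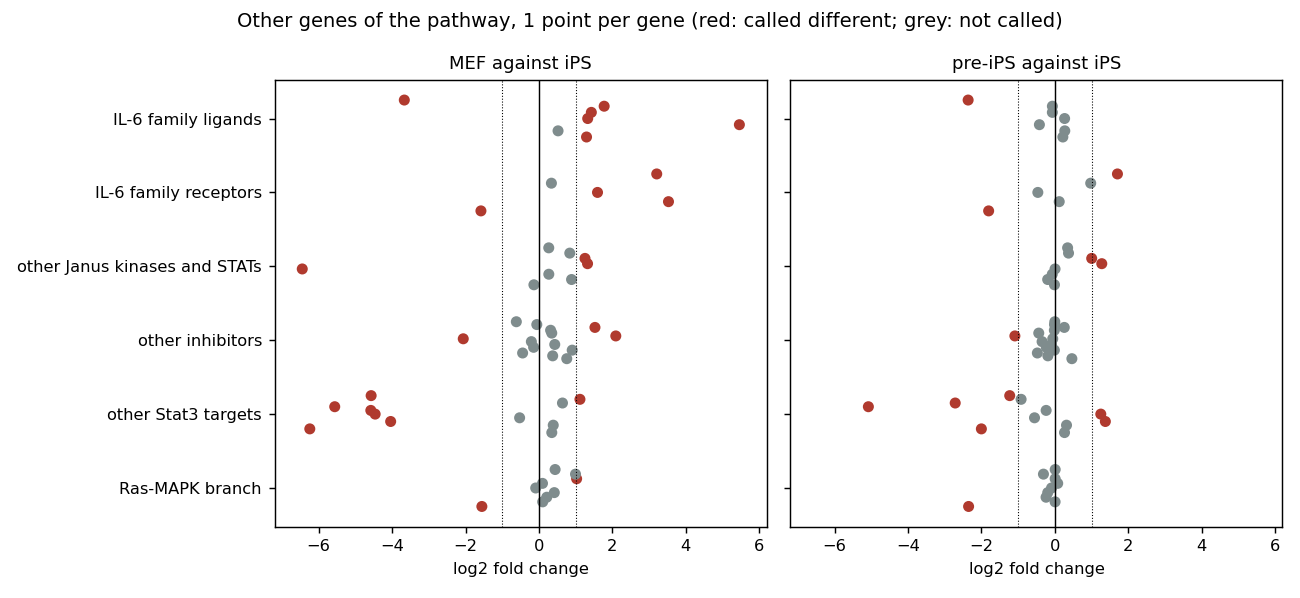
Log2 fold change of the other pathway genes, 1 point per gene in rows by list, for MEF against iPS (left) and pre-iPS against iPS (right); red points are called and grey are not, with dotted lines at 1 in either direction. Other Stat3 targets hold 6 of 11 genes called lower in MEF, 4 of 9 without the retroviral factors *Klf4* and *Myc*, and *Pramel7* lies lowest in pre-iPS cells, where it had 1 read and the plotted value depends on the pseudocount.

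Against the control line, the rNetrin-1-derived clones differed in 2 of the 54 tested genes of these lists (3.70%), where 2.11% of all genes were called. *Jak3*, a Janus kinase of cytokine receptors in lymphocytes, rose by 1.22 (SE 0.13, adjusted p = 0.00282, limma). It stood at 899 and 666 in the control line, 1633 and 1584 in clone 1 and 2082 and 1971 in clone 2. All 4 clone libraries lay above both control libraries, and 21.3% of all genes had no overlap between these groups. Pre-iPS cells, at 1436 and 1273, and MEF, at 1321 and 1159, lay above both control libraries too. The control line was thus the lowest of all lines. The call was kept under all 21 alternatives, each of which rests on the same 1 control clone. *Il6* rose by 1.77 (SE 0.33, adjusted p = 0.0271, limma), at low values of 2.90 and 4.18 in the control line against 12.3 to 18.8 in the clones. *Il6* was above both control libraries in pre-iPS cells (7.14 and 10.6) and in MEF (27.8 and 41.0) as well. Its call was lost under 9 of 20 alternatives, among them DESeq2 (adjusted p = 0.0889) and leaving out either control library (0.150 and 0.103). Between the clones, *Pramel7* (2.19, adjusted p = 0.0412), *Tfcp2l1* (1.59, adjusted p = 0.0375) and *Gab1* (1.18, adjusted p = 0.0343) were higher in clone 2 by limma, 3 of the 54 (5.56%) where 0.966% of all genes were called, and 3 of the 10 pluripotency markers were as well. The calls of *Pramel7*, *Tfcp2l1* and *Gab1* were lost under 10 of 20, 9 of 21 and 8 of 21 alternatives. All 3 were lost with only the clones in the fit (adjusted p = 0.197 to 0.240, limma) and without either library of clone 1. They were also lost without either MEF library, although MEF are not compared there. None of the pathway lists held a gene called between passages.

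For each of the 9 genes the tested gene with the most similar pattern was sought by Pearson correlation of log2 values over the 10 libraries, which share lines. *Il6st* was nearest to *Pdgfrb*, a fibroblast marker (r = 0.999), *Jak1* to *Tmem106b* (0.999), *Jak2* to *Spats2l* (0.998) and *Stat3* to *Uros* (0.998). *Pim3* was nearest to *Cwf19l1* (0.993), *Pim1* to *Bcar3* (0.992) and *Lifr* to *Kdelc2* (0.990). *Lif* and *Socs3*, which varied least between lines, had the lowest values, with *Ubtd1* (0.955) and *Slc25a1* (0.950). The MEF libraries lie far from the rest for most of these genes, and the libraries are not independent points.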

How the data were processed

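The table holds 10 libraries of 5 lines, read as single reads from poly(A) RNA. The authors deposited pseudo-counts, that is read counts equalized by edgeR over the library sizes, as a normalized signal per gene symbol. The submitters' processing notes name FastQC, CASAVA 1.8.2, TopHat2 2.0.8b, HTSeq 0.5.3p9 and edgeR, and the build mm10. The annotation and the strand setting are not given in the sources used here. From the steps between low values, each deposited value was turned back into reads, whole within 0.05 read for 100% of the values of 9 libraries and 99.98% in the MEF library of passage 2. No gene in the table had fewer than 10 reads in total.

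Of all genes, 17075 reached a value of 10 in 2 or more libraries and were tested, the 9 pathway genes among them. They were fitted with limma 3.58.1 (R 4.3.3) on log2(value + 1), with an empirical Bayes trend, 1 mean per line over all 10 libraries and Benjamini-Hochberg adjustment. Fold changes are on that scale, which understates those of low genes. A call needed an adjusted p under 0.05 and a log2 difference of at least 1. Passages were compared with the line as a block, in 8 libraries, leaving out MEF. Passage numbers pair libraries across these lines, since deviations of same-passage libraries from their line means correlated in all 6 pairs of lines (0.235 to 0.504). The alternatives were pseudocounts of 5 and 0.5, no filter and a mean of at least 50 (14043 genes), quantile normalization, housekeeping scaling, the adjusted p alone, edgeR 4.0.16 and DESeq2 1.42.0 on recovered reads, only the lines compared, passage as a replicate block and leaving out each library. On recovered reads edgeR called 8194 genes in MEF against iPS and 2712 in pre-iPS against iPS, where limma on the deposited values called 8237 and 2781. The tests were tried on counts simulated for pre-iPS against iPS only, with the same spread set for every line. Such counts cannot show how pooling unequal spreads affects the p-values.

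The 9 genes and the pathway and marker lists were chosen with earlier results of these data known. By rule, each pathway list names at most the 2 called genes with the largest fold changes in MEF and in pre-iPS cells against iPS, and every gene called between the clones or against the control. 1 gene that this rule names is not reported here, though the counts of its list include it. The 4 housekeeping genes and the gene nearest in pattern to each of the 9 are named as well. *Dppa3*, *Pou5f1*, *Zfp42*, *Fgf4* and the macrophage genes, from the marker lists, and *Klf4* and *Myc* among the targets were named after their values were seen. Counts without *Klf4* and *Myc* and marker sums without *Cd68* and *Csf1r* were likewise added after seeing the data. Positions and exon lengths are from GENCODE M21, promoter windows from RefSeq (GRCm38.p6), and these need not be the annotation on which the authors counted.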

Additional observations from a re-analysis of the deposited data

Results flagged for a closer look

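In 4 of the 9 genes the control iPS line and both rNetrin-1-derived clones changed in opposite directions from passage 5 to passage 25. The difference was not tested, since each line has 1 library per passage, and 3366 of the 17075 genes (19.7%) showed the same. For *Lif* the change on the log2 scale was 0.3266 in the control line, against −0.2503 in clone 1 and −0.2147 in clone 2. For *Lifr*, the receptor subunit of the same ligand, clone 1 gave 0.1912, clone 2 gave 0.06843 and the control line −0.5433. *Pim3* gave −0.4982 in the control line, against 0.05687 in clone 1 and 0.1967 in clone 2. The changes of *Jak1* were small, at 0.04858 in the control line, against −0.08204 in clone 1 and −0.1073 in clone 2.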

How the results depend on the processing

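The 7 calls between MEF and iPS were made under every alternative. With the adjusted p alone the members called were 3 in place of 1 for pre-iPS against iPS and 2 in place of 0 for passage 25 against passage 5, and leaving out each library gave 1 to 2 for the former. *Socs3* changed sign where its difference was near 0, at −0.025 in MEF against iPS with quantile normalization, and −0.31 to 0.30 in pre-iPS against iPS over the libraries left out. *Pim1* in clone 2 against clone 1 ran from −0.025 to 0.61 likewise. Leaving out a library leaves a line with 1, which is then assumed to vary like the others. Passage as a replicate block changed no call among the 9 genes. For MEF, no paired analysis was possible because its passages have other numbers, so the fits with that block left MEF out.

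Over all genes, calls for pre-iPS against iPS were 2781, and 1758 with a mean of at least 50 or 6758 with the adjusted p alone. For MEF the adjusted p alone gave 13546 against iPS in place of 8237, and 12062 against pre-iPS in place of 7383. For rNetrin-1-derived against control the 360 calls became 134 with only these lines in the fit, 564 with the replicate block and 697 with the adjusted p alone. For the clones 165 became 6, 327 and 271 in the same order, 435 with DESeq2 and 106 with a mean of at least 50. For passages 289 became 6 without the line as a block and 1869 with the adjusted p alone. Leaving out a library gave 120 to 419 calls for the clones against control, with the fewest lacking a control library, 14 to 260 between the clones and 94 to 288 for passages. At these depths the spread between passages, not counting error, limits the 9 genes.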
